A study of Mus musculus with 9 samples.

Results

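The livers of mice fed clofibrate were compared with the livers of mice fed a control diet, over every gene the array measured and with attention to functions other than lipid breakdown. The arrays were chosen by the diet that their titles name: 3 of clofibrate and 3 of control, 6 of the 9 arrays of the series. All mice were females of the outbred strain Crlj:CD1(ICR), bought at 9 weeks of age and quarantined for 1 week, and all were given a powdered diet for 2 weeks. The control diet held 0 ppm of test compound and the clofibrate diet 5000 ppm clofibrate. The other 3 arrays, of mice given 5000 ppm of permethrin, a pyrethroid insecticide, entered the shared fit and serve here as a treated comparator. Each array held liver RNA of 1 mouse. Whole liver was extracted, so fewer cells of a type and less RNA per cell cannot be told apart, and a single dose and a single time were measured.

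Clofibrate is a fibrate drug whose active acid binds peroxisome proliferator-activated receptor alpha (PPAR alpha), a nuclear receptor that pairs with the retinoid X receptor on DNA. In rodent liver the receptor is known for turning on fatty acid uptake and oxidation and for enlarging the peroxisome population. The same liver makes most plasma proteins through its endoplasmic reticulum (ER), detoxifies ammonia and drugs, makes sterols and bile acids, and releases glucose.

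Values are MAS 5.0 signals, the linear intensity that Affymetrix software gives a probe set, and every array had been scaled to nearly the same trimmed mean before deposit. Differences and folds are on the log2(signal + 3.35) scale, which understates the change of dim genes, and the per-array values are given in the order of replicates 1, 2 and 3. A gene was called changed when its adjusted p in limma's moderated test across all 24546 tested probe sets was under 0.05, and 12476 genes with a tested probe set of their own symbol were read. All 11 hepatocyte markers were measured, with a summed signal of 87834 to 98028 in the control arrays and 62855 to 76754 in the clofibrate arrays. The bacterial and phage hybridization controls, which are added at a fixed amount, had a mean log2 signal of 9.78 ± 0.12 (SD, n = 3) in the clofibrate arrays and 10.12 ± 0.16 in the control arrays. The brightest signal of an array was 10714 to 12058 with clofibrate and 14387 to 14899 with control diet. Scaling to those controls instead of the trimmed mean moved the median gene from -0.04 to 0.27, a shift of 0.32, so the direction of a small change depends on the scaling. The share of these technical differences in the results was not tested, and counts under that scaling are given beside the gene groups.

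On clofibrate 877 of 12476 genes (7.03%) changed, 403 upward (3.23%) and 474 downward (3.8%). The 2 groups of arrays did not overlap for any of the 877, nor for 27.2% of all genes. Where groups of a called gene are said below to lie apart, this holds for every called gene and adds no support. Under scaling to the hybridization controls the split was 1016 higher and 88 lower (92% higher), against 46% higher here. The share of rises was 62.7% with each array centred on its median, 49.4% with quantile normalization and 52.4% with cyclic loess. The count was 473, 558 and 496 without control replicates 1, 2 and 3, and 430 without clofibrate replicate 3. Most changes were moderate: 585 of the called genes (66.7%) changed by less than 2-fold, 371 of them by 1.5- to 2-fold. At least 4-fold changes were 46 rises and 13 falls. Of the called genes, 526 belonged to none of the 67 gene lists used below. The count of falls and rises in each list is to be read beside the 3.8% and 3.23% of all genes.

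**Figure D1:**
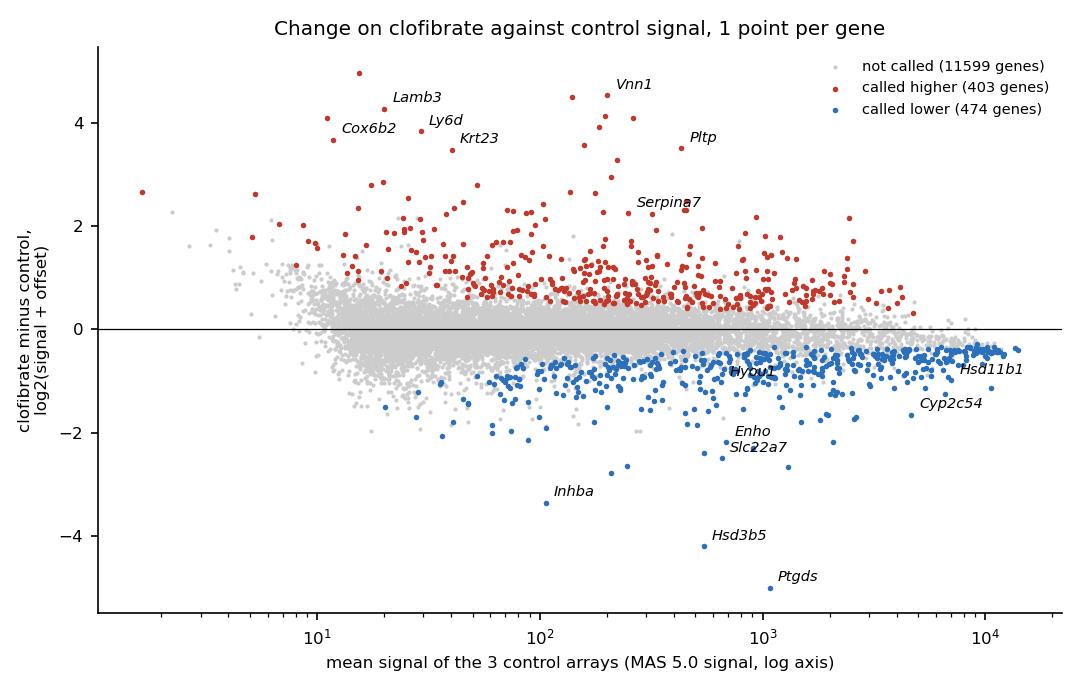
Change on clofibrate (log2 difference, vertical) against the mean signal of the control arrays (horizontal, log axis), 1 point per gene, for all 12476 genes. Called rises (red, 403 genes) reach 4.97 on the log2 scale and spread over the range of signals, while called falls (blue, 474 genes) gather among bright genes, with a median control signal of 1023. The control signal also enters the difference, which favours falls among bright genes.

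Rises and falls differed in the control signal of the genes they involved. Called rises had a median control signal of 217 and called falls of 1023, against 96.7 for all genes. A probe set's brightness is used here to sort genes and is no measure of how much of one transcript there is beside another. The control signal also enters the difference, so sorting by it favours falls among bright genes and rises among dim ones. With a control mean above 1000, 241 genes fell and 67 rose. With a clofibrate mean above 1000, 180 fell and 124 rose. Among the 1117 genes with a control signal of 1000 or more, 21.6% fell and 6% rose, and their median was -0.19. Of 18 gene lists picked for at least 5 falls, 17 had a share of falls above 21.6% among their members of that brightness, from 25% to 85.7%. Picking lists by their falls favours a high share, and the list of protein translocation and ER export was drawn up after values were seen. These shares therefore describe the lists and test nothing. The highest was that of coagulation (18 of 21) and the lowest of the 17 that of aldehyde and alcohol metabolism. Junction and adhesion genes were under it, with 1 of 7 (14.3%), and UDP-glucuronosyl- and sulfotransferases little above it, with 4 of 15 (26.7%). Lists with fewer falls such as glutathione transferases (18.2%) and organic ion transporters (12.5%) also lay under it. Among the 4251 genes under 50, 0.235% fell and 1.69% rose. Falls were also the smaller changes, with a median of 0.73 in size on the log2 scale against 0.92 for rises.

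Many of the largest rises were in genes with no known step in lipid breakdown. Lamb3, a laminin chain of epithelial basement membranes, read 16.1, 23.9 and 20.2 in the control arrays and 193, 981 and 468 in the clofibrate arrays. All clofibrate values lay above all control values, and the difference was 19.4-fold (log2 4.28 ± 0.46 (SE), adjusted p = 0.000375). Permethrin arrays read 31.6, 32 and 58.9, below every clofibrate array (adjusted p = 0.00869 for clofibrate against permethrin). Slc39a5, a zinc importer of the cell membrane, read 9.99, 9.65 and 13.6 in the control arrays and 170.1, 339.7 and 248 in the clofibrate arrays. All its control arrays were under the filter signal of 15.6, and set against that signal the clofibrate arrays were at least 13-fold higher (adjusted p of the fit = 0.000108). Ly6d, a membrane-anchored surface protein best known from lymphocyte precursors and epithelia, rose from 36, 30.2 and 21.3 to 257, 730.3 and 494, 14.3-fold (adjusted p = 0.00151). Krt23, a keratin of the cell skeleton, rose from 26, 23.2 and 71.2 to 324, 491 and 499, 11.2-fold (adjusted p = 0.000767). As for every called gene, the groups did not overlap for these genes, and clofibrate replicate 1 was the lowest clofibrate array for all 4 of them. Cox6b2, a form of a cytochrome c oxidase subunit known from testis, read 9.24, 12.3 and 13.9 in the control arrays and 101, 302 and 220.1 in the clofibrate arrays. Its control arrays too were all under 15.6, and it rose at least 10.2-fold against that signal (adjusted p of the fit = 0.000163) and was higher than with permethrin, whose arrays read 17.6, 30.3 and 26 (adjusted p = 0.00558).

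Lipid carriers outside oxidation rose as well. Pctp, which moves phosphatidylcholine between membranes, read 59.9, 399 and 97.1 in the control arrays and 1534, 2469 and 2284 in the clofibrate arrays. Control replicate 2 was the highest of its group and still under every clofibrate array (15-fold, adjusted p = 0.00106). Pltp, the plasma phospholipid transfer protein, rose from 425, 545 and 319.9 to 3895, 5902 and 4854, 11.4-fold (adjusted p = 0.000452). Mogat1, which makes diacylglycerol from monoacylglycerol, had the largest rise of all called genes, from 4.5, 18.6 and 23.4 to 377, 726 and 509.9, 31.4-fold (adjusted p = 8.69e-05). The remaining genes among the 12 largest rises were Vnn1, Cd36, Acot1, Acot2 and Cyp4a12a, all known from earlier work on fibrates, at 11.9-fold for Acot2 to 23.2-fold for Vnn1.

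**Figure D2:**
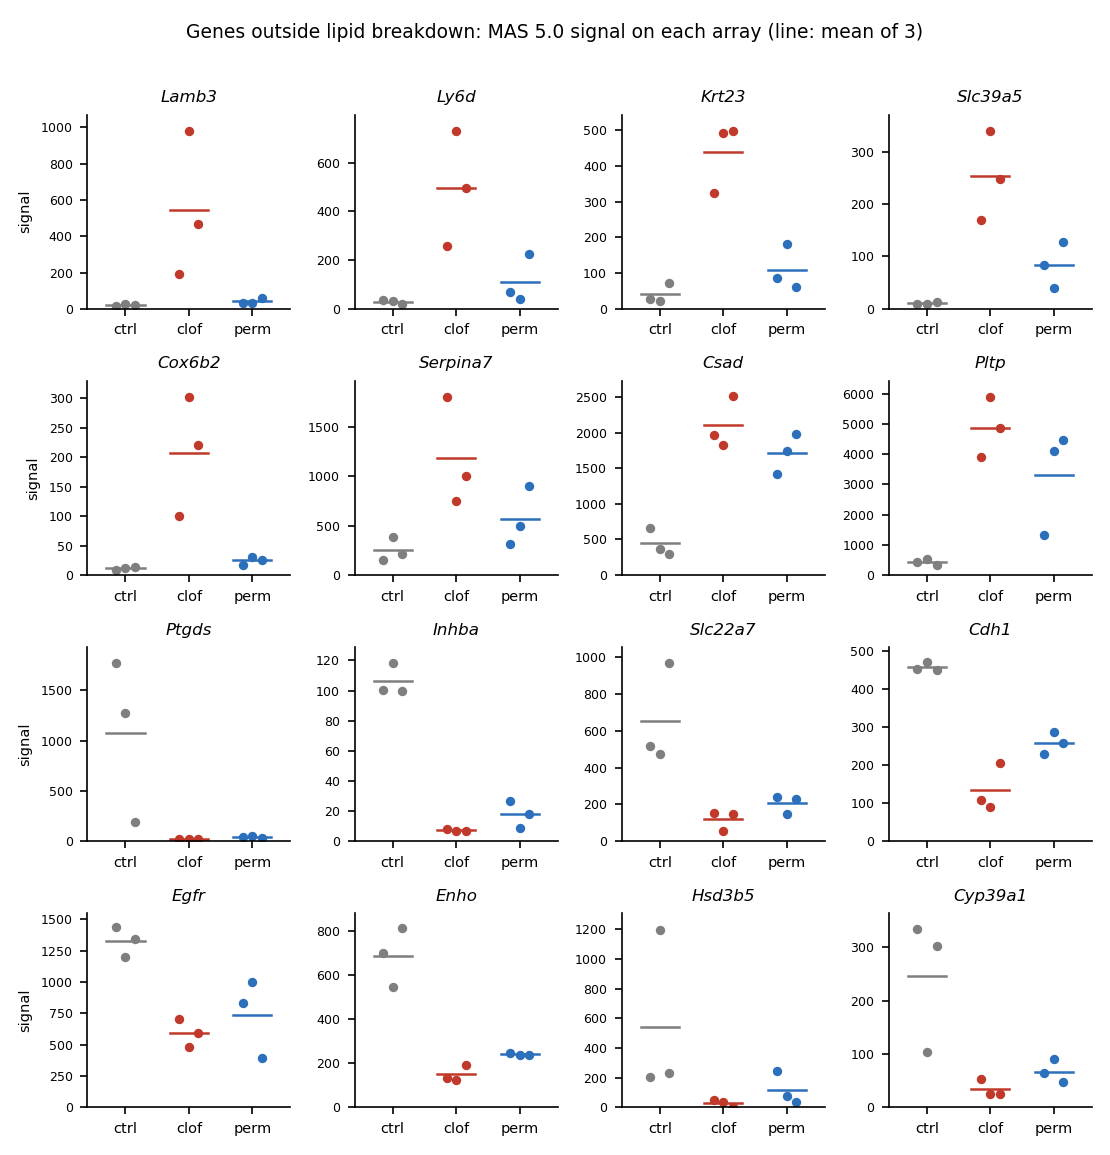
Signal of 16 genes on each array (points; line, mean of 3 arrays) for control diet (ctrl), clofibrate (clof) and permethrin (perm), each panel on its own linear axis from 0. The upper 8 genes rose on clofibrate and the lower 8 fell. In every panel the clofibrate points lie on 1 side of the control points, as they do for every called gene.

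The steepest falls took in hormones, steroid enzymes and transporters. Ptgds, which makes prostaglandin D2, read 1767, 1269 and 191 in the control arrays and 19.1, 22.5 and 19.5 in the clofibrate arrays. The clofibrate arrays lay close together, while control replicate 3 was far below the other controls and still above all of them (32.1-fold lower, adjusted p = 0.000846). Inhba, the beta A chain of activin and inhibin, fell from 100.3, 118 and 99.5 to 8.39, 6.89 and 6.72 (adjusted p = 0.000152). All its clofibrate arrays were under 15.6, which makes the fall at least 5.77-fold. Hsd3b5, a liver 3-beta-hydroxysteroid dehydrogenase that acts as a ketosteroid reductase, fell from 206, 1196 and 229.6 to 49.8, 33.9 and 1.41. This change was 18.4-fold (adjusted p = 0.025), with both groups spread over a wide range. Enho encodes adropin, a peptide linked to energy balance, and fell from 699, 544 and 813 to 133, 122 and 194, 4.54-fold (adjusted p = 9e-05); its other tested probe sets differed by -1.94 to -0.13. Cela1, an elastase-like serine protease, fell from 1076, 1399 and 1409 to 204, 216 and 179, 6.36-fold (adjusted p = 3.71e-05). It was the only called member of the pancreas list, whose defining genes Cpa1, Cpb1, Ctrb1, Gcg, Ins2 and Reg1 did not pass the filter on dim signals. The serpin pseudogene Serpina4-ps1, Hsd3b2 and Fam171b fell 6.87-, 5.27- and 4.42-fold. Hsd3b5 was not called without control replicates 2 or 3 or clofibrate replicate 3 (adjusted p = 0.0911, 0.051 and 0.0768, log2 -4.57 to -3.12).

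Among genes of moderate change, under 2-fold, the rises with the smallest p spanned several compartments. Hsd17b12, a steroid dehydrogenase that also serves fatty acid elongation, read 1304, 1482 and 1362 in the control arrays and 2415, 2774 and 2563 in the clofibrate arrays, a rise of 1.87-fold (adjusted p = 0.000299). Its groups were well apart. Fcgrt, the neonatal Fc receptor that saves albumin and immunoglobulin G from breakdown, rose from 774, 684 and 723 to 1199, 1268 and 1364 (adjusted p = 0.000986). Clofibrate arrays of Fcgrt were also higher than those of permethrin, at 794, 823 and 897 (adjusted p = 0.0279). Cox17, a copper chaperone for cytochrome c oxidase, rose from 865, 849.7 and 849 to 1410.1, 1340.1 and 1381 (adjusted p = 0.00108), with little spread in either group. Chdh, which oxidises choline to betaine aldehyde, rose 1.7-fold. Rab9, a small GTPase of endosome to Golgi traffic, rose 1.73-fold, and Entpd5, a nucleotidase of the ER, 1.8-fold. The xenobiotic enzymes Ephx1 and Gstm4 rose 1.83-fold and 1.92-fold. Of the 12 rises the other 4 (Decr1, Slc25a20, Ephx2 and Abcd3) serve fatty acid breakdown or epoxide hydrolysis.

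The moderate fall with the smallest p was that of Hsd11b1, which regenerates active glucocorticoid in liver. It read 7135, 7036 and 6891 in the control arrays and 3955, 3283 and 3404 in the clofibrate arrays, 1.98-fold lower (adjusted p = 0.000187). The groups were well apart, and the clofibrate arrays were lower than the permethrin arrays as well, at 5408, 5240.0 and 4666 (adjusted p = 0.0354). Iyd, which recovers iodide from iodotyrosines, fell from 1030.0, 972 and 1071 to 564, 566 and 623, 1.75-fold (adjusted p = 0.000737). The heparan sulfate proteoglycans Sdc2 and Gpc4 fell 1.9-fold and 1.83-fold, and Fermt2, an activator of integrins, 1.88-fold. Ptms, the chromatin protein parathymosin, fell 1.7-fold, although its other tested probe sets differed by -0.55 to 0.59. Of the 12 moderate falls with the smallest p, 4 were genes of the secretory pathway described next (Spcs3, Sec61a1, Ern1 and Lman1). Iyd and Gpc4 were not called under scaling to the hybridization controls, and Fermt2 and Ern1 were not called with the mean of all probe sets of the gene; Ptms, Sec61a1 and Lman1 were not called under scaling to the hybridization controls or with the mean of all probe sets of the gene.

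Some genes of the ER were lower with clofibrate than with control diet, and some were lower than with permethrin. Secreted and membrane proteins enter the ER through the Sec61 channel, lose their signal peptide, receive sugars, fold with the help of chaperones and leave in coated vesicles. Unfolded protein in the ER activates sensors such as the kinase Ern1 (IRE1), which splices the messenger of the transcription factor Xbp1 and so raises chaperone levels. Of 28 tested ER chaperone and unfolded protein response genes, 10 fell and 0 rose, against 3.8% falling of all genes. Their median was -0.32, and 24 of the 28 differences were negative. The 10 falls became 5 with median-centred arrays and 1 under scaling to the hybridization controls (median 0.01), and 5 without clofibrate replicate 3. Against permethrin 7 of the 28 were lower with clofibrate and 0 higher, where 0.473% of all genes were lower and 0.265% higher, and the median was -0.55 with all genes at 0.01. Those 7 became 3 without permethrin replicate 1, permethrin replicate 3 or clofibrate replicate 2, 2 without clofibrate replicate 3, and 0 under scaling to the hybridization controls (median -0.37, all genes 0.18). The same clofibrate arrays enter both comparisons, so they are not independent.

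Promoter windows of ER genes are shown because 10 of the 25 promoters of the list (40%) hold the letters of the ER stress element, a CCAAT box followed after 9 bases by CCACG, which the transcription factors NF-Y, ATF6 and XBP1 are known to bind. This motif was chosen after the values were seen. It was searched on both strands from 250 bases before to 50 bases after the start site in RefSeq promoters (GRCm38.p6), and it overlaps the CCAAT box counted below. It lay in 0.124% of 12886 promoters of tested genes and in 0.119% of all 32851 promoters of the table. The windows run 5′ to 3′ along the coding strand. Capitals mark the element, which begins with CGTGG and ends with ATTGG where it lies on the opposite strand.
Hspa5, chr2:34772015-34772053, plus strand: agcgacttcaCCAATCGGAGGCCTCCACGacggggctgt
Pdia6, chr12:17266481-17266519, plus strand: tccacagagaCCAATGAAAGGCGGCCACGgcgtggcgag
Calr, chr8:84847065-84847103, minus strand: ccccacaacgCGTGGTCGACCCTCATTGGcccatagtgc
Ero1b, chr13:12565672-12565710, plus strand: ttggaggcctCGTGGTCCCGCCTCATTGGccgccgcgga
Dnajc3, chr14:118937817-118937855, plus strand: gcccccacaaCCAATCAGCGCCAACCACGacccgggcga
Canx, chr11:50325790-50325828, minus strand: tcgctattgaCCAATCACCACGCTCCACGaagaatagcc
Hspa5 and Calr are chaperones, Pdia6 and Ero1b make and shuffle disulfide bonds, Dnajc3 is a co-chaperone and Canx a lectin chaperone of new glycoproteins. Of the 10 genes with the element, 5 fell (Hspa5, Pdia6, Calr, Ero1b and Hsp90b1) and the others, Dnajc3 and Canx among them, were not called. A match describes letters and is no evidence that a factor binds there.

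Hspa5 (BiP), the main ER chaperone of the heat shock 70 family, read 3708, 5191 and 4190.5 in the control arrays, 2777, 3081 and 3121 in the clofibrate arrays and 5385, 4649 and 6069 in the permethrin arrays. All clofibrate values were below all others, and the difference from control was 1.45-fold (adjusted p = 0.0426). Hyou1, a larger chaperone that exchanges nucleotide on Hspa5, read 691, 614 and 656 in the control arrays, 325, 306 and 325 in the clofibrate arrays and 817, 617 and 752 in the permethrin arrays. It was 2.04-fold lower than control (log2 -1.03 ± 0.12 (SE), adjusted p = 0.000716) and lower than permethrin (log2 -1.18 ± 0.12 (SE), adjusted p = 0.00221). Other tested probe sets of Hyou1 differed by -0.05 to 0.35 between clofibrate and control. Pdia6, the disulfide isomerase, fell from 829, 834 and 1178 to 544, 464 and 408, 1.98-fold (adjusted p = 0.00542). Calr, which binds calcium and new glycoproteins, fell from 6108, 5889 and 6407 to 3886, 4319 and 3838, 1.53-fold (adjusted p = 0.0032). Clofibrate arrays lay below every control and permethrin array for both genes. Dnajb11, a co-chaperone of Hspa5, fell 1.72-fold. The oxidase Ero1b was at 588 ± 105 in control and 361 ± 7.95 in clofibrate arrays (mean ± SD, n = 3 each; adjusted p = 0.0138). The transcription factor Xbp1 fell from 3035, 3847 and 3288 to 2415, 1965 and 1778, 1.66-fold (adjusted p = 0.0064). Among effectors of prolonged ER stress, Ddit3 (CHOP) read 58.6, 53.8 and 91.5 in the control arrays and 97.6, 62.5 and 79 in the clofibrate arrays, overlapping groups (adjusted p = 0.686). Atf4, which acts upstream of it, differed by -0.30 ± 0.12 (SE; adjusted p = 0.196). Hyou1 was not called with the mean of all its probe sets, and Pdia6 was not called under scaling to the hybridization controls or with the mean of all its probe sets; Calr was not called with median-centred arrays or under scaling to the hybridization controls; Dnajb11 was not called under scaling to the hybridization controls; Xbp1 was called in 20 of the 23 alternatives, not under scaling to the hybridization controls. Hspa5 was not called without control replicates 2 or 3, permethrin replicate 1 or clofibrate replicates 1, 2 or 3 (adjusted p = 0.0592 to 0.147, log2 -0.56 to -0.40), nor under scaling to the hybridization controls. Ero1b was not called without control replicate 2 or clofibrate replicate 3 (adjusted p = 0.0519 and 0.0503, log2 -0.70 to -0.55), nor under scaling to the hybridization controls.

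**Figure D3:**
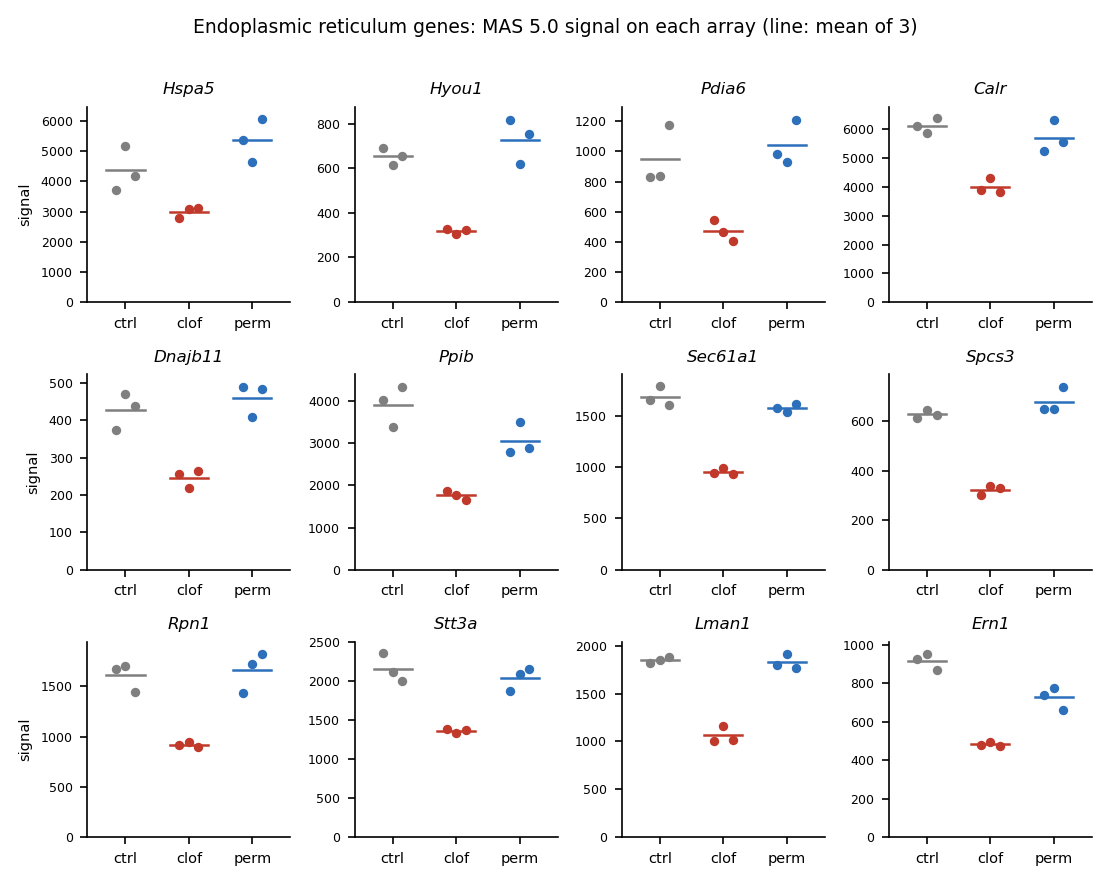
Signal of 12 ER genes on each array (points; line, mean of 3 arrays) for control diet (ctrl), clofibrate (clof) and permethrin (perm), linear axes from 0. In every panel the 3 clofibrate points lie below all control and permethrin points. The 12 genes were picked from called falls, so their place below control was set by that choice. In the ER chaperone list 7 of 28 genes, and in the ER export list 10 of 62, were called lower than with permethrin.

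Some genes that bring proteins into and out of the ER fell too. A list of 62 tested genes of protein translocation, N-glycosylation and ER export was drawn up after values were seen, so its counts describe these genes and test nothing. In it 17 genes fell (27.4%, against 3.8% of all genes) and 0 rose, with a median of -0.20. Against permethrin 10 were lower, where 0.473% of all genes were. The 17 falls became 5 with median-centred arrays and 1 under scaling to the hybridization controls (median 0.13), and 8, 8, 5 and 6 without control replicates 1, 2 and 3 and clofibrate replicate 3 in turn. The 10 became 3 without clofibrate replicate 3, and 1 under scaling to the hybridization controls. Sec61a1, the pore of the translocation channel, read 1646, 1786 and 1598 in the control arrays, 940.5, 989 and 930.1 in the clofibrate arrays and 1569, 1536 and 1616 in the permethrin arrays. It was 1.76-fold lower than control (adjusted p = 0.000457), while other probe sets of the gene differed by -0.61 to 0.06. Spcs3, a subunit of the signal peptidase, read 613, 644 and 624 in the control arrays, 302, 338 and 329 in the clofibrate arrays and 647, 648 and 736 in the permethrin arrays. Its clofibrate arrays were far below both other groups (1.93-fold below control, adjusted p = 0.000457). Lman1, a cargo receptor that carries coagulation factors out of the ER, read 1816, 1846 and 1886 in the control arrays, 1010.0, 1162 and 1019 in the clofibrate arrays and 1794, 1915 and 1767 in the permethrin arrays. Here too the clofibrate arrays stood apart (adjusted p = 0.000626 against control, 0.00492 against permethrin). Of the oligosaccharyltransferase, which attaches N-linked sugars, Rpn1 fell 1.74-fold and the catalytic Stt3a 1.57-fold. Ppib, a prolyl isomerase of the ER, fell from 4033, 3381 and 4324 to 1868, 1779 and 1662, 2.2-fold (adjusted p = 0.00032). The sensor Ern1 fell from 926, 951 and 869.9 to 479.6, 496 and 475 (adjusted p = 0.000457), and its other tested probe set differed by 0.02. Of the 55 promoters of this list 0 held the ER stress element, and 25 (45.5%) held a CCAAT box. Sec61a1 and Lman1 were not called under scaling to the hybridization controls or with the mean of all probe sets of the gene, and Rpn1 and Stt3a were not called under scaling to the hybridization controls; Ern1 was not called with the mean of all its probe sets.

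Many genes of secreted plasma proteins fell, and 1 rose. These proteins are made by hepatocytes and pass through the ER on their way to the blood. Of 26 tested coagulation and fibrinolysis genes 19 fell and 0 rose, and the median was -0.41. The 19 falls became 9 with quantile normalization, 11 with cyclic loess, 3 with median-centred arrays and 2 under scaling to the hybridization controls (median -0.08), and 8, 7 and 6 without control replicates 1 and 3 and clofibrate replicate 3 in turn. F7, the factor that starts the extrinsic pathway, read 1124, 1065 and 1236 in the control arrays, 586, 619 and 562 in the clofibrate arrays and 663, 575 and 551 in the permethrin arrays. It fell 1.93-fold (adjusted p = 0.000622), and the permethrin arrays lay in the same range as the clofibrate arrays. F11, of the intrinsic pathway, fell from 506, 536 and 734 to 255, 306 and 210.2, 2.28-fold (adjusted p = 0.00218). F5, the cofactor of thrombin formation, fell 1.59-fold. Fga, a chain of fibrinogen, fell 1.35-fold (adjusted p = 0.0242). F5 was not called under scaling to the hybridization controls. Fga was not called without control replicates 1, 2 or 3 or clofibrate replicate 3 (adjusted p = 0.0587 to 0.0902, log2 -0.46 to -0.41), nor under scaling to the hybridization controls.

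The promoter of F7 is shown because it holds a loose form of the direct repeat that PPAR alpha and other receptors recognise, 2 copies of AGGNCA with 1 base between them. That form lay in 0.303% of promoters of tested genes, in 5 of 474 promoters of called falls (1.05%) and in 0 of 434 promoters of called rises. Capitals mark the match, which lies on the opposite strand and begins 34 bases before the start site.
F7, chr8:13025990-13026022, plus strand: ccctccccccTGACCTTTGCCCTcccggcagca
The strict form, 2 copies of AGGTCA with 1 base between them, lay in 0 promoters of called rises and of called falls and in 0.0388% of those of tested genes. That there was no match says only that these letters are not in this window.

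Complement, the blood system that marks and lyses microbes, had falls as well. Of 24 genes 13 fell and 0 rose, with a median of -0.41. The 13 falls became 2 under scaling to the hybridization controls (median -0.07), and 7 and 8 without control replicate 3 and clofibrate replicate 3 in turn. C1ra, a protease of the C1 complex, read 1439.7, 1441 and 1523 in the control arrays and 670.0, 768 and 881 in the clofibrate arrays. Its groups did not overlap (1.91-fold lower, adjusted p = 0.00126). C8b, a chain of the membrane attack complex, fell from 997, 1248 and 1308 to 705, 335 and 449.5 (adjusted p = 0.0122). Another chain of the same protein, C8g, fell from 5745, 5735 and 5644 to 3215, 3649 and 3135 (adjusted p = 0.00236), and the clofibrate arrays were below all control arrays for both. In the lectin pathway Masp1 and Mbl2 fell 1.82-fold and 1.72-fold. C8g and Mbl2 were not called under scaling to the hybridization controls, and Masp1 was not called under scaling to the hybridization controls or with the mean of all its probe sets. C8b was not called without control replicate 3 or clofibrate replicate 3 (adjusted p = 0.0533 and 0.0521, log2 -1.27 to -1.23), nor under scaling to the hybridization controls.

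Of 35 acute phase and carrier proteins 16 fell and 1 rose, with a median of -0.42. The 16 falls became 6 with quantile normalization, 9 with cyclic loess, 1 with median-centred arrays and 0 under scaling to the hybridization controls (median -0.08), and 7, 8, 5 and 4 without control replicates 1, 2 and 3 and clofibrate replicate 3 in turn. The rise was Serpina7, the thyroxine-binding globulin, which read 149, 389 and 212 in the control arrays and 1811, 748 and 1006 in the clofibrate arrays. All clofibrate values were above all control values, at 4.75-fold (adjusted p = 0.0111). Serpina6, the glucocorticoid carrier, went the other way, from 3813, 4410.0 and 4787 to 1864, 3355 and 2067 (1.84-fold lower, adjusted p = 0.0173). Crp, a pentraxin, fell 1.78-fold. Alb, serum albumin, read 9668, 9189 and 9197 in the control arrays and 6183, 7830.5 and 7084 in the clofibrate arrays, and the groups did not overlap (adjusted p = 0.0248). Crp was not called under scaling to the hybridization controls or without an intensity trend. Serpina7 was not called without control replicate 1 (adjusted p = 0.0511, log2 1.94). Serpina6 was not called without control replicates 2 or 3 or clofibrate replicate 3 (adjusted p = 0.0587, 0.0709 and 0.0784, log2 -0.86 to -0.79), nor under scaling to the hybridization controls. Alb was not called without control replicates 1, 2 or 3 or clofibrate replicate 3 (adjusted p = 0.0709 to 0.104, log2 -0.43 to -0.39), nor under scaling to the hybridization controls.

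**Figure D4:**
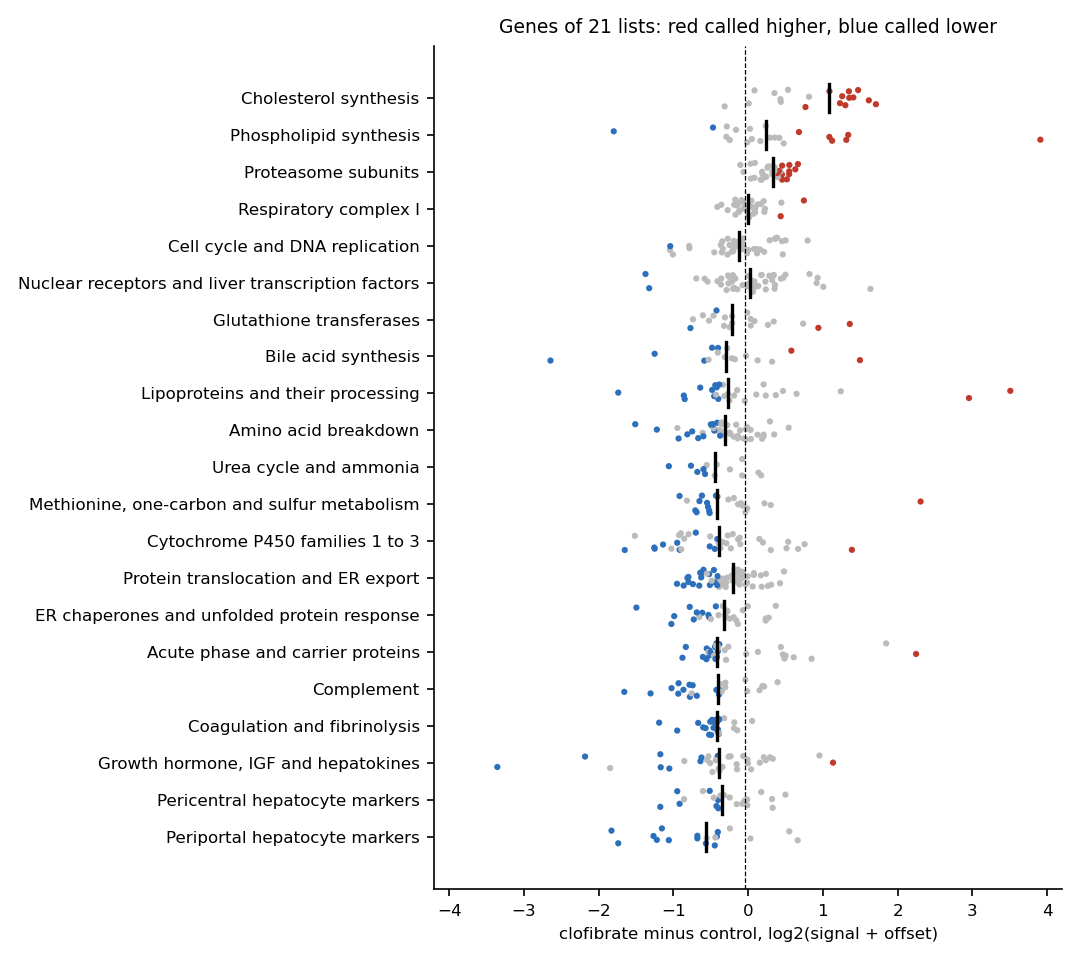
Change of each gene (points, log2 difference, horizontal) in 21 gene lists (rows); red called higher, blue called lower, grey not called, black bar the list's median, dashed line the median of all genes at -0.04. Cholesterol synthesis has the highest median of the 21 (1.09) and periportal markers the lowest (-0.56).

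Genes at several steps of the urea cycle fell, a pathway that turns ammonia into urea in periportal hepatocytes. Of 13 genes 5 fell and 0 rose, with a median of -0.45. The 5 falls became 2 with median-centred arrays and 1 under scaling to the hybridization controls (median -0.12). Asl, which cleaves argininosuccinate, read 3132, 2562 and 3354 in the control arrays and 1394, 1706 and 1242 in the clofibrate arrays, 2.09-fold lower (adjusted p = 0.000937). Otc, which makes citrulline, fell from 5083, 5726 and 4925 to 2845, 3552 and 2890.1 (adjusted p = 0.00304). Cps1, the entry enzyme, fell from 9777, 8793 and 10326 to 5518, 6288 and 6235, 1.6-fold (adjusted p = 0.00203). The clofibrate arrays were below every control array for all 3 genes. Slc25a15, the ornithine carrier, and Glud1, which releases ammonia from glutamate, fell 1.49-fold and 1.51-fold. Otc was not called under scaling to the hybridization controls, and Cps1 was not called with median-centred arrays or under scaling to the hybridization controls; Slc25a15 was called in 19 of the 23 alternatives, not under scaling to the hybridization controls; Glud1 was called in 20 of the 23 alternatives, not under scaling to the hybridization controls.

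Of 46 genes of amino acid breakdown 14 fell and 0 rose, with a median of -0.31. The 14 falls became 4 with median-centred arrays and 3 under scaling to the hybridization controls (median 0.03), and 6, 9, 7 and 9 without control replicates 1, 2 and 3 and clofibrate replicate 3 in turn. Prodh, which starts proline breakdown, fell from 1449, 989.7 and 1243 to 485, 397 and 394, 2.85-fold (adjusted p = 0.000393). Hal, the histidine ammonia-lyase, fell from 2297, 1992 and 2208 to 723, 967 and 1133, 2.33-fold (adjusted p = 0.000873). Neither gene had overlapping groups. Agxt, which removes glyoxylate, fell 1.91-fold, and Dbt, of the branched-chain keto acid dehydrogenase, 1.76-fold. Dbt was not called under scaling to the hybridization controls.

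In methionine, one-carbon and sulfur metabolism 11 of 22 genes fell and 1 rose, with a median of -0.42. The 11 falls became 0 with median-centred arrays and 0 under scaling to the hybridization controls (median -0.09), and 4, 3, 7 and 2 without control replicates 1 and 3 and clofibrate replicates 1 and 3 in turn. Cbs, which joins homocysteine to serine on the way to cysteine, fell 1.61-fold (adjusted p = 0.00753), and Aldh1l1, a folate enzyme, 1.57-fold. Csad, the decarboxylase that leads from cysteine sulfinate toward taurine, rose from 668, 367 and 299 to 1975, 1831 and 2517. Every clofibrate array was above every control array (4.95-fold, log2 2.31 ± 0.25 (SE), adjusted p = 0.000413), and the permethrin arrays were high too, at 1422, 1744 and 1991. The taurine importer Slc6a6 fell 1.95-fold (adjusted p = 0.00139). Cbs was called in 20 of the 23 alternatives, not under scaling to the hybridization controls, and Aldh1l1 was called in 20 of the 23 alternatives, not under scaling to the hybridization controls; Slc6a6 was not called under scaling to the hybridization controls.

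Sugar metabolism showed falls in both glycolysis and glucose release. Of 21 genes 6 fell and 1 rose, with a median of -0.13. The 6 falls became 3 under scaling to the hybridization controls (median 0.20). Pklr, the liver pyruvate kinase, read 460.5, 574 and 484 in the control arrays and 130.4, 168 and 117 in the clofibrate arrays. This was 3.62-fold lower (log2 -1.85 ± 0.15 (SE), adjusted p = 7.49e-05), with no overlap. G6pc, which frees glucose from its phosphate, fell from 1867, 1659 and 2830.3 to 827, 729 and 1038, 2.4-fold (adjusted p = 0.00348). Its ER transport partner Slc37a4 fell from 1408, 1226 and 1775 to 634, 548 and 613, 2.42-fold (adjusted p = 0.000413), so that both parts of the glucose 6-phosphatase system were lower. Khk, which phosphorylates fructose, fell 1.85-fold. Pck1, the entry enzyme of gluconeogenesis, read 3509, 2048 and 5718 in the control arrays and 3644, 1490.3 and 3040.2 in the clofibrate arrays, and these groups overlapped (adjusted p = 0.622). Pdk4, the kinase that shuts off pyruvate dehydrogenase, rose from 69.5, 129.8 and 75.3 to 301, 542 and 521, 4.85-fold (adjusted p = 0.00218). In glycogen metabolism 4 of 15 genes fell and 1 rose, with a median of 0.24. The 4 falls became 1 with median-centred arrays and 1 under scaling to the hybridization controls (median 0.57), and 1, 1 and 1 without control replicates 1 and 3 and clofibrate replicate 3 in turn. Ppp1r3c, a subunit that targets phosphatase to glycogen, fell 2.03-fold and was lower than with permethrin too (adjusted p = 0.00193 and 0.0468). Khk was not called under scaling to the hybridization controls.

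Genes at several steps of sterol synthesis rose. Cells make cholesterol from acetyl-CoA through mevalonate, farnesyl diphosphate, squalene and lanosterol, under control of the transcription factor Srebf2. Of 19 cholesterol synthesis genes 11 rose and 0 fell, with a median of 1.09, against 3.23% rising of all genes, and 14 rose under scaling to the hybridization controls. The 11 rises became 14 under scaling to the hybridization controls (median 1.42), and 7, 7 and 7 without control replicate 3 and clofibrate replicates 2 and 3 in turn. Of the early steps Pmvk, the phosphomevalonate kinase, read 328, 324 and 303 in the control arrays, 578, 1035 and 704 in the clofibrate arrays and 372, 367 and 393 in the permethrin arrays. Its clofibrate arrays were above both other groups (adjusted p = 0.00216 against control, 0.0347 against permethrin). Idi1, the isomerase of isopentenyl diphosphate, rose from 1829, 1433 and 983 to 3232, 3969 and 3366, 2.56-fold (adjusted p = 0.00143). After lanosterol, Cyp51, which removes a methyl group from it, read 488, 431 and 502 in the control arrays, 1147, 1768 and 1519 in the clofibrate arrays and 742, 654 and 649 in the permethrin arrays. It was 3.06-fold above control (adjusted p = 0.000158) and above permethrin (adjusted p = 0.00994). Clofibrate replicate 2 was the highest array for all 11 called genes. Srebf2 itself read 94.7, 109.9 and 113 in the control arrays and 150.1, 106 and 159 in the clofibrate arrays, and these groups overlapped (adjusted p = 0.276).

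Promoters of this group are shown for their CCAAT boxes, found in 15 of 18 promoters (83.3%) against 37.2% of promoters of tested genes. NF-Y, which binds the box, is known to act with the sterol regulatory factors. Capitals mark each box, which reads ATTGG on the opposite strand.
Mvd, chr8:122443423-122443492, minus strand: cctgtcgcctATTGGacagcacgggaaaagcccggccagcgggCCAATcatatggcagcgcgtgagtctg
Idi1, chr13:8885551-8885605, plus strand: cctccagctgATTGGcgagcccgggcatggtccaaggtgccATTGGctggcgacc
Lss, chr10:76531533-76531604, plus strand: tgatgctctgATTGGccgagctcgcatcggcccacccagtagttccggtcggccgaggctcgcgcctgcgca
Cyp51, chr5:4104698-4104736, minus strand: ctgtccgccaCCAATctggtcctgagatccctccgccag
These genes act in the order given, from the mevalonate diphosphate decarboxylase and the isomerase to lanosterol synthase and demethylase. The sterol regulatory element searched for (ATCAC, 1 base, CCAC) was in 0 of the 18 promoters and in 0.163% of those of tested genes. In the ER chaperone list, where the called genes fell, CCAAT boxes lay in 21 of 25 promoters (84%). Lss was not called with the mean of all its probe sets. Mvd was not called without control replicate 3 or clofibrate replicates 2 or 3 (adjusted p = 0.0929, 0.0775 and 0.0768, log2 1.03 to 1.39).

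**Figure D5:**
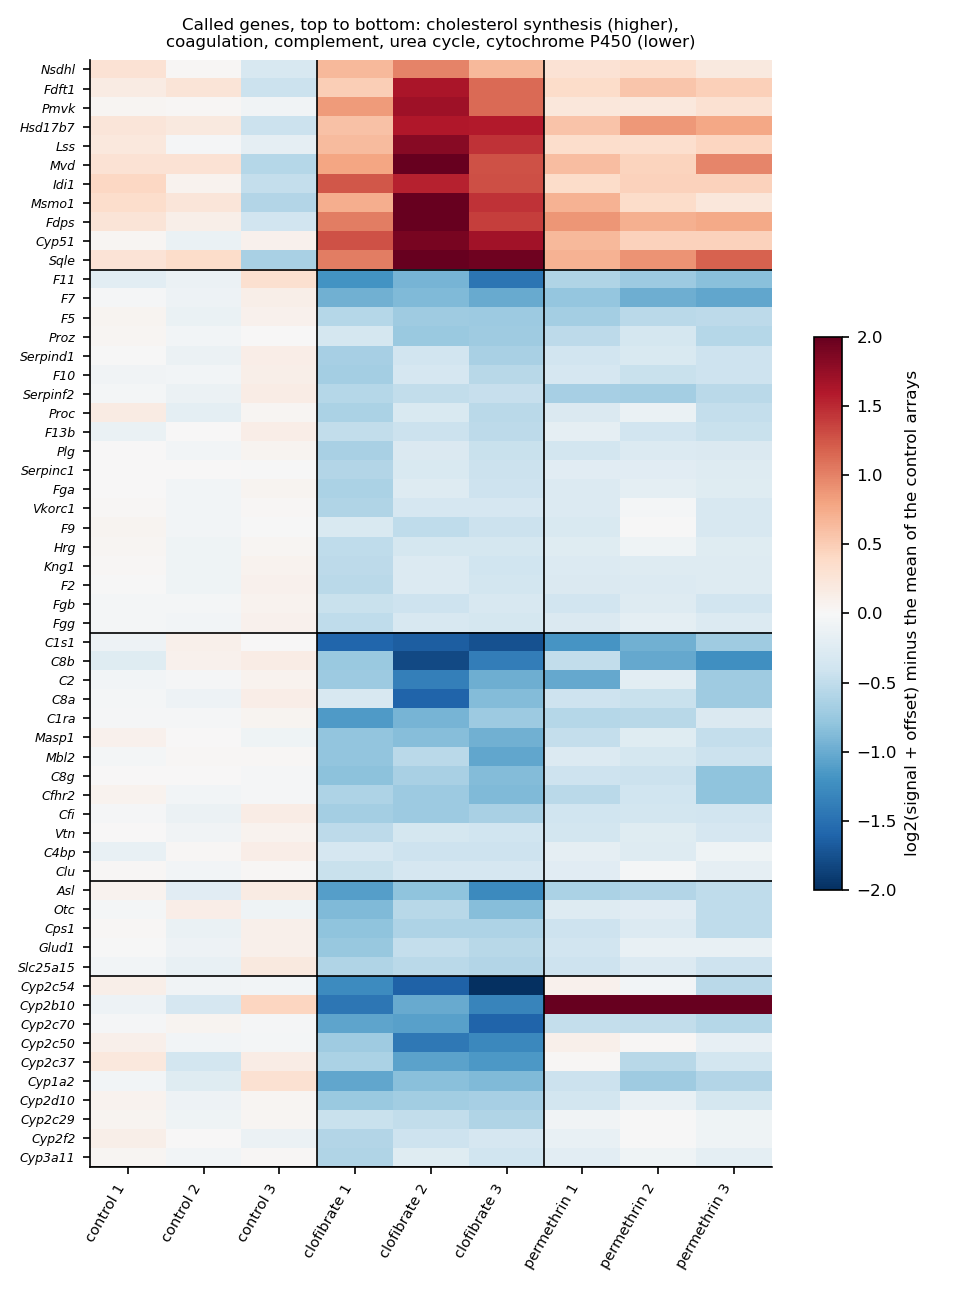
Members of 5 gene lists called higher (cholesterol synthesis) or lower (the other lists), in rows, on each of the 9 arrays (columns). Values are log2(signal + offset) minus the mean of the control arrays, colour limits -2 to 2. The direction against control was set by that choice, and the called P450 rise, Cyp3a13, is not drawn. The cholesterol synthesis genes were highest on clofibrate replicate 2, and Cyp2b10 was high with permethrin and low with clofibrate.

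Bile acid enzymes moved in both directions. Of 16 genes 5 fell and 2 rose, with a median of -0.30. The 5 falls became 3 with quantile normalization, 2 with median-centred arrays and 2 under scaling to the hybridization controls (median 0.04), and 3 and 3 without control replicate 1 and clofibrate replicate 2 in turn. The 2 rises became 1 without control replicates 1 or 2, permethrin replicates 1 or 2 or clofibrate replicates 1, 2 or 3. Cyp39a1, which hydroxylates an oxysterol on the way to bile acids, read 334, 104 and 302 in the control arrays and 53.3, 25.5 and 24.5 in the clofibrate arrays, 6.25-fold lower (adjusted p = 0.00406). Cyp2c70, which makes the muricholic acids of mice, fell from 6505, 6828 and 6459 to 3164, 3106 and 2162, 2.38-fold (adjusted p = 0.000318). The groups were apart for both. Acot8, a peroxisomal thioesterase that acts on bile acyl-CoA and fatty acyl-CoA, rose from 244, 262 and 318 to 762, 778 and 789 (adjusted p = 0.000131). Cyp7a1, the rate-limiting enzyme of the classic route, read 1038, 874 and 487 in the control arrays and 339, 1989 and 1278 in the clofibrate arrays. These overlapped (adjusted p = 0.8), as did the values of Cyp8b1, which sets the share of cholic acid (adjusted p = 0.971).

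Of 21 transporters of organic ions and bile acids 4 fell and 3 rose. The 4 falls became 2 with median-centred arrays and 2 under scaling to the hybridization controls (median 0.07). Slc22a7 (OAT2), an uptake carrier of organic anions, read 519, 476 and 969 in the control arrays and 152, 53.9 and 148 in the clofibrate arrays, 5.65-fold lower (adjusted p = 0.00303). Slco1a4, another uptake carrier, fell from 1137, 631 and 949 to 126, 209 and 209, 4.91-fold (adjusted p = 0.000738). The efflux pumps Abcc4 and Abcg2 rose while these uptake carriers fell, but Abcc6, another export pump of the list, fell (log2 -0.80, adjusted p = 0.00635). Abcc4, of the basolateral membrane, rose from 40.3, 28.2 and 45.5 to 167, 289.7 and 137, 4.71-fold (adjusted p = 0.000567). Abcg2, of the canalicular membrane, rose from 422, 512 and 421 to 929, 923 and 1305, 2.3-fold (adjusted p = 0.000743). Both pumps were also high with permethrin, at 269, 336 and 349.7 for Abcc4 and 1049, 991 and 962 for Abcg2.

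Among 27 lipoprotein genes 10 fell and 2 rose, the rises being Pltp and the lipase Lpl (7.76-fold), with a median of -0.27. The 10 falls became 5 with quantile normalization, 2 with median-centred arrays and 1 under scaling to the hybridization controls (median 0.06), and 3, 6, 3 and 4 without control replicates 1, 2 and 3 and clofibrate replicate 3 in turn. Apoa4, a chylomicron and high-density apolipoprotein, fell from 2779, 2237 and 2679.9 to 921, 597 and 810.0, 3.33-fold (adjusted p = 0.000186). Apoc3, an inhibitor of lipoprotein lipase, fell 1.34-fold (adjusted p = 0.0184). In phospholipid synthesis 6 of 21 rose and 2 fell, with a median of 0.24. The 6 rises became 9 under scaling to the hybridization controls (median 0.57), and 3 without clofibrate replicate 3. The 2 falls became 1 without control replicates 1 or 3 or clofibrate replicate 3. Chkb, a choline kinase, rose from 318, 292 and 285 to 673, 741 and 879.8 and was higher than with permethrin, at 402, 419 and 423 (adjusted p = 0.000133 and 0.0103). Chpt1, the last step to phosphatidylcholine, rose 2.18-fold. Etnppl, which breaks down phosphoethanolamine, fell from 1806, 947 and 1725 to 308, 359.6 and 621, 3.48-fold (adjusted p = 0.00597). Kdsr, of sphingolipid synthesis, rose 2.36-fold. Etnppl was not called with the mean of all its probe sets. Apoc3 was not called without control replicates 1 or 3 or clofibrate replicate 3 (adjusted p = 0.081, 0.0738 and 0.0686, log2 -0.43 to -0.40), nor under scaling to the hybridization controls.

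The cytochromes P450 of families 1 to 3 oxidise drugs and other foreign compounds. Of 37 genes 10 fell (27%) and 1 rose (2.7%), where 3.8% of all genes fell and 3.23% rose, with a median of -0.39. Of the 37, 6 were lower than with permethrin, where 0.473% of all genes were. The 10 falls became 5 under scaling to the hybridization controls (median -0.06). Cyp2c54 read 5038, 4417 and 4481 in the control arrays, 1933, 1503 and 1105 in the clofibrate arrays and 4928, 4465 and 3179 in the permethrin arrays. It was 3.14-fold below control (adjusted p = 0.000728) and below permethrin (adjusted p = 0.00869), though closely related Cyp2c genes can share probe signal and single members are uncertain. Cyp2b10, the standard target of the receptor CAR, read 763, 646 and 1098 in the control arrays, 299, 402 and 326 in the clofibrate arrays and 4179, 4148 and 3628 in the permethrin arrays. The clofibrate arrays were the lowest of the 3 groups (2.39-fold below control, adjusted p = 0.00213). Cyp1a2, which oxidises caffeine, fell from 4894, 4289 and 6270.5 to 2483, 2846 and 2762, 1.89-fold (adjusted p = 0.0026). Cyp3a13 was the rise, from 676, 419 and 513 to 862, 1758 and 1739 (adjusted p = 0.0271). Cyp2e1, which oxidises ethanol, read 12556, 10971 and 11664 in the control arrays and 6915, 10984 and 9734 in the clofibrate arrays, with overlap (adjusted p = 0.172). Cyp3a13 was not called without control replicates 2 or 3 or clofibrate replicates 2 or 3 (adjusted p = 0.0819 to 0.112, log2 1.21 to 1.37).

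Conjugation and hydrolysis enzymes changed in part, where 3.8% of all genes fell and 3.23% rose. Of 26 UDP-glucuronosyl- and sulfotransferase genes 5 fell (19.2%) and 1 rose (3.85%). Under scaling to the hybridization controls 1 fell and 2 rose. The 5 falls became 2 without control replicate 1 or clofibrate replicate 3 and 3 without control replicates 2 or 3 or clofibrate replicate 1. Of 20 glutathione transferases 2 fell (10%) and 2 rose (10%), or 0 and 3 under scaling to the hybridization controls. Of the 20, 7 were lower than with permethrin, where 0.473% of all genes were. The 2 falls became 1 without control replicates 1 or 3 or clofibrate replicate 3. Of 21 carboxylesterases and amidases 4 fell (19%) and 2 rose (9.52%), or 2 and 3 under scaling to the hybridization controls. The 4 falls became 2 without control replicates 1, 2 or 3 or clofibrate replicates 1 or 3. Ces1c, a carboxylesterase, read 10668, 10309 and 10939.8 in the control arrays and 4635, 5161 and 4693 in the clofibrate arrays. The groups were far apart (2.2-fold, log2 -1.14 ± 0.09 (SE), adjusted p = 4.1e-05). Ces2a fell from 3147, 2919 and 3042 to 1259, 1414 and 1589, 2.14-fold (adjusted p = 0.000133). Both carboxylesterases were lower than with permethrin (adjusted p = 0.00869 for Ces1c and 0.00345 for Ces2a). Gstt2 rose from 744, 929.8 and 789 to 1681, 2256 and 2452, 2.57-fold (adjusted p = 0.000457), while Gsta4, which clears lipid aldehydes, fell 1.71-fold. Cbr3, a carbonyl reductase known as a target of NRF2, read 9.18, 12 and 19.5 in the control arrays, 31.8, 29.4 and 33.6 in the clofibrate arrays and 133, 113 and 141 in the permethrin arrays. Clofibrate arrays lay between the other groups (adjusted p = 0.0173 against control and 0.00433 against permethrin). Aox3, an aldehyde oxidase, fell 2.1-fold. The NRF2 target Nqo1 overlapped between groups (adjusted p = 0.944). Of 15 NRF2 target and glutathione synthesis genes 5 rose (33.3%, against 3.23% of all genes) and 0 fell, with a median of 0.46. The 5 were Abcc4, Me1, Cbr3, Ephx1 and Srxn1, and the alternatives gave 3 to 7 rises. Srxn1 was not called without control replicates 1, 2 or 3, permethrin replicates 1 or 3 or clofibrate replicates 1 or 2. Gsta4 and Aox3 were not called under scaling to the hybridization controls. Cbr3 was not called without control replicates 1 or 2 or clofibrate replicate 3 (adjusted p = 0.0601, 0.0572 and 0.0723, log2 0.90 to 1.05).

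Vitamin and eicosanoid genes held large changes in both directions. Of 24 vitamin genes 4 fell and 2 rose (2 and 6 under scaling to the hybridization controls). The 4 falls became 2 without control replicates 1, 2 or 3 or clofibrate replicate 3. Rdh16, a retinol dehydrogenase, read 289, 351 and 357 in the control arrays and 901, 1582 and 1408 in the clofibrate arrays, a rise of 3.79-fold (adjusted p = 0.000192). Dhrs4, a carbonyl and retinal reductase, rose from 1078, 1033 and 1022 to 2450.5, 2101 and 2342, 2.19-fold (adjusted p = 0.000199). Stra6l, a receptor for retinol-binding protein, fell from 1787, 1654 and 1611 to 833, 751 and 814, 2.1-fold (adjusted p = 0.00017). The groups were apart for these 3 retinoid genes. Cyp4f14, which hydroxylates vitamin E and leukotriene B4, fell from 1764, 2339 and 2082 to 718, 491 and 256, 4.54-fold (adjusted p = 0.00215). Of 18 prostaglandin and eicosanoid genes 3 rose, the phospholipases Pla2g6 (2.31-fold) and Pla2g12a (2.01-fold) and the epoxide hydrolase Ephx2, and Ptgds fell (falls and rises were 1 and 4 under scaling to the hybridization controls).

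Some hormone and growth factor genes of the liver fell. Of 35 growth hormone, insulin-like growth factor and hepatokine genes 9 fell and 1 rose, with a median of -0.39. The 9 falls became 5 with median-centred arrays and 4 under scaling to the hybridization controls (median -0.07), and 5 and 5 without control replicate 1 and clofibrate replicate 3 in turn. Lect2, a secreted hepatokine, fell 2.26-fold. Igf1, the main growth factor released by liver, read 4896, 4819.5 and 5249 in the control arrays and 2839.9, 3569.5 and 3334 in the clofibrate arrays, with no overlap (adjusted p = 0.0081). The receptor Egfr fell from 1436, 1203 and 1341 to 702, 481 and 597, 2.25-fold (adjusted p = 0.0336), and its other tested probe sets differed by -1.39 to -0.11. Fgf21, a hormone of fasting, was dim and read 22.3, 26.1 and 9.76 in the control arrays and 40.7, 38.7 and 53.4 in the clofibrate arrays (adjusted p = 0.0484). Igf1 was called in 20 of the 23 alternatives, not under scaling to the hybridization controls. Egfr was not called without control replicates 1, 2 or 3 or clofibrate replicates 2 or 3 (adjusted p = 0.0726 to 0.116, log2 -1.24 to -1.03), nor under scaling to the hybridization controls. Fgf21 was not called without control replicates 1 or 3, permethrin replicates 1, 2 or 3 or clofibrate replicates 1, 2 or 3 (adjusted p = 0.0625 to 0.182, log2 0.78 to 1.26).

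Some stress genes other than those of the ER rose. Of 21 heat shock protein genes 3 rose and 0 fell, with a median of 0.38. The 3 rises became 5 with cyclic loess and 10 under scaling to the hybridization controls (median 0.72), and 5 without clofibrate replicate 2. Hspa1b, an inducible heat shock 70 protein, read 648, 806 and 1058 in the control arrays and 3812, 1739.8 and 4129 in the clofibrate arrays (adjusted p = 0.00402), and Hspb1, a small heat shock protein, rose 3.06-fold. The heat shock element (GAA, TTC and GAA with 2 bases between each) lay in 5 of 23 promoters of this list (21.7%) and in 0.497% of those of tested genes. Genes of the list with the element included Hspd1 and Hspe1, which were not called. Among promoters of all called rises 1 of 434 held it (0.23%), so the element marks the list and not the rises. Of 32 proteasome subunits 11 rose and 0 fell, with a median of 0.33. The 11 rises became 4 with median-centred arrays and 18 under scaling to the hybridization controls (median 0.66), and 3, 5, 3, 5 and 2 without control replicates 1, 2 and 3 and clofibrate replicates 2 and 3 in turn. Psmd4, a ubiquitin receptor of the proteasome, read 860.0, 813 and 700.3 in the control arrays, 1135, 1218 and 1425 in the clofibrate arrays and 1269, 1379.7 and 1229 in the permethrin arrays. The clofibrate arrays were above all control arrays (1.59-fold, adjusted p = 0.00777), and the permethrin arrays were as high. Of 23 antioxidant and metallothionein genes 3 fell (13%, against 3.8% of all genes) and 0 rose, with a median of 0.05. Of the 15 with a control signal of 1000 or more 20% fell, near the 21.6% of all genes that bright. Falls and rises were 0 and 0 under scaling to the hybridization controls. The 3 were the ER peroxiredoxin Prdx4 (1.82-fold), the selenium carrier Selenop and the glutathione peroxidase Gpx1. The 3 falls became 1 without control replicates 1, 2 or 3, permethrin replicates 1, 2 or 3 or clofibrate replicates 1 or 3. Prdx4 was not called under scaling to the hybridization controls. Selenop was not called without control replicates 1, 2 or 3, permethrin replicates 1, 2 or 3 or clofibrate replicates 1 or 3 (adjusted p = 0.0502 to 0.148, log2 -0.42 to -0.29), nor under scaling to the hybridization controls. Gpx1 was not called without control replicates 1, 2 or 3, permethrin replicates 1, 2 or 3 or clofibrate replicates 1 or 3 (adjusted p = 0.0629 to 0.145, log2 -0.36 to -0.25), nor under scaling to the hybridization controls.

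Among transcription factor genes the share of falls was near that of all genes. Of 50 nuclear receptor and liver transcription factor genes 2 fell (4%) and 0 rose, with a median of 0.03. Of all genes 3.8% fell and 3.23% rose. Under scaling to the hybridization controls 8 rose and 1 fell. The 2 falls became 1 without control replicates 1 or 2 or clofibrate replicate 1. Esr1, the estrogen receptor alpha, read 517, 628 and 659 in the control arrays and 224, 302 and 196 in the clofibrate arrays, 2.5-fold lower (adjusted p = 0.00212). Ppard, the delta relative of PPAR alpha, fell from 61.8, 89.5 and 55.1 to 19.7, 18.8 and 36.6 (adjusted p = 0.0373). Ppara, which encodes PPAR alpha, read 923, 727 and 881 in the control arrays and 1012, 1267 and 1149.6 in the clofibrate arrays. Those groups did not overlap, but the difference of 0.44 ± 0.13 (SE) did not pass (adjusted p = 0.0888). Of 20 clock genes Npas2 and Cry1 fell (10%) and 0 rose (1 and 2 under scaling to the hybridization controls). The 2 falls became 1 without control replicates 1, 2 or 3 or clofibrate replicate 2. Cry1, a repressor of the clock, read 124, 97.6 and 134 in the control arrays and 49.5, 37 and 60.1 in the clofibrate arrays, 2.35-fold lower (adjusted p = 0.00812), and the hour of sampling is not given in the sources used here. Ppard was not called without control replicates 1, 2 or 3 or clofibrate replicates 1 or 2 (adjusted p = 0.0661 to 0.135, log2 -1.51 to -1.18), nor under scaling to the hybridization controls. Npas2 was not called without control replicates 1, 2 or 3 or clofibrate replicates 1 or 2 (adjusted p = 0.052 to 0.126, log2 -1.53 to -0.95), nor under scaling to the hybridization controls.

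Few genes of growth and damage passed the test, where 7.03% of all genes did. Of 42 cell cycle and DNA replication genes only Tk1, thymidine kinase, was called (2.06-fold lower, adjusted p = 0.0254). Of the 42, 0 had a control signal of 1000 or more. Of all genes under 50 only 0.235% fell and 1.69% rose, so a low count is no evidence that dim genes did not respond. Falls and rises of the list were 0 and 1 under scaling to the hybridization controls. Mki67, a marker of dividing cells, read 2.25, 35.8 and 18.8 in the control arrays and 14.5, 17 and 12.4 in the clofibrate arrays, overlapping groups (adjusted p = 0.962). The cyclin Ccnd1 overlapped between groups (adjusted p = 0.448), as did the cell cycle inhibitor Cdkn1a (adjusted p = 0.856) and Myc (adjusted p = 0.279). By limma 0 of 32 growth arrest, apoptosis and immediate early genes and 0 of 28 DNA repair genes passed, with 6 and 3 at an unadjusted p under 0.05. Under scaling to the hybridization controls 3 and 1 of them rose. Tk1 was not called without control replicates 1, 2 or 3 or clofibrate replicates 1 or 3 (adjusted p = 0.0593 to 0.0851, log2 -1.10 to -0.77), nor under scaling to the hybridization controls.

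Few genes of the respiratory chain were called, at shares that say little beside those of other genes. Of all genes 3.23% rose and 3.8% fell. Among genes with a control signal of 1000 or more, 6% rose and 21.6% fell. Of 33 complex I genes, 31 of them that bright, 2 rose (6.06%) and 0 fell, with a median of 0.00 (6 rose under scaling to the hybridization controls). The 2 rises became 1 without control replicates 1, 2 or 3, permethrin replicates 1 or 3 or clofibrate replicates 2 or 3. Of 39 genes of complexes III to V and uncoupling 2 rose (5.13%), Cox6b2 and cytochrome c (Cycs). In that list 1 gene fell (2.56%), the ATP synthase subunit Atp5h (falls and rises were 0 and 4 under scaling to the hybridization controls). The 2 rises became 1 without control replicates 1, 2 or 3, permethrin replicates 1, 2 or 3 or clofibrate replicates 2 or 3. Ndufab1, the acyl carrier of complex I, rose from 1780.0, 1779.8 and 1804 to 2416, 3547 and 3156, 1.68-fold (adjusted p = 0.00598). Clofibrate replicate 1 was the lowest of its group there and still above all control arrays. Of 39 cytosolic ribosomal protein genes 3 fell (7.69%), Rpsa, Rps15 and Rps29, by 1.36-, 1.32- and 1.26-fold. Among the 31 with a control signal of 1000 or more 9.68% fell, under the 21.6% of all genes that bright. Falls and rises of the list were 0 and 1 under scaling to the hybridization controls. The 3 falls became 0 without control replicates 1 or 2 or clofibrate replicate 3, 1 without control replicate 3 and 5 without clofibrate replicate 2. The log2 difference of Rps29 turned to 0.0108 with quantile normalization and 0.00178 under scaling to the hybridization controls. Cycs was not called without control replicates 1, 2 or 3, permethrin replicates 1, 2 or 3 or clofibrate replicates 2 or 3 (adjusted p = 0.0645 to 0.203, log2 0.26 to 0.34). Atp5h was not called without control replicates 1, 2 or 3, permethrin replicates 1 or 3 or clofibrate replicates 1, 2 or 3 (adjusted p = 0.0535 to 0.149, log2 -0.37 to -0.28), nor under scaling to the hybridization controls. Rpsa was not called without control replicates 1 or 2 or clofibrate replicate 3 (adjusted p = 0.0751, 0.0647 and 0.0631, log2 -0.45 to -0.42), nor under scaling to the hybridization controls. Rps15 was not called without control replicates 1, 2 or 3 or clofibrate replicate 3 (adjusted p = 0.0751 to 0.0937, log2 -0.41 to -0.39), nor under scaling to the hybridization controls. Rps29 was not called without control replicates 1, 2 or 3 or clofibrate replicate 3 (adjusted p = 0.0612 to 0.0959, log2 -0.35 to -0.31).

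Single genes of cell contact and shape changed, where 3.8% of all genes fell and 3.23% rose. Of 26 junction and adhesion genes 5 fell (19.2%) and 1 rose (3.85%, near the share of all genes). Under scaling to the hybridization controls 2 fell and 2 rose. The 5 falls became 2 without control replicates 1 or 3 or clofibrate replicate 3 and 3 without control replicate 2 or permethrin replicates 1 or 3. Of 36 cytoskeleton genes 4 rose (11.1%) and 2 fell (5.56%, near the share of all genes), and under that scaling 5 rose and 0 fell. The 4 rises became 2 without control replicates 1 or 3 or clofibrate replicates 2 or 3. The 2 falls became 1 without control replicate 2 or clofibrate replicate 3. Cdh1, the epithelial cadherin, read 453, 472 and 450.1 in the control arrays and 109, 90.7 and 206 in the clofibrate arrays, 3.55-fold lower (adjusted p = 0.0012). Cldn1, a sealing claudin of tight junctions, fell from 841, 724 and 978 to 344, 349.9 and 463, 2.19-fold (adjusted p = 0.00126). The clofibrate arrays lay below all control arrays for both. Tpm1, a tropomyosin of the actin skeleton, rose from 112, 110.2 and 118 to 198, 223 and 232 (adjusted p = 0.00197), with groups well apart.

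Some markers of both hepatocyte zones of the lobule fell. Of 18 periportal markers 12 fell and 0 rose, with a median of -0.56. The 12 falls became 5 with median-centred arrays and 5 under scaling to the hybridization controls (median -0.24), and 7 without control replicate 1. Of 22 pericentral markers 7 fell and 0 rose, with a median of -0.35. The 7 falls became 3 with quantile normalization, 4 with cyclic loess, 3 with median-centred arrays and 2 under scaling to the hybridization controls (median -0.02), and 3, 4, 4 and 3 without control replicates 1 and 3 and clofibrate replicates 2 and 3 in turn. Several of these genes were described above under their function, namely Cdh1, Apoa4, Hal, G6pc, Asl and Cps1 among the periportal and Cyp1a2 and Lect2 among the pericentral markers.

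Markers of other liver cells gave few calls, where 7.03% of all genes were called. Of 15 Kupffer cell and macrophage markers 0 passed, and their summed signal was 4524 to 5451 in control and 4555 to 6218 in clofibrate arrays. Of 15 endothelial markers only Fcgr2b, an inhibitory Fc receptor, was called (1.78-fold lower, adjusted p = 0.00286), and the summed signal was 3113 to 3172 with clofibrate and 3920 to 4512 with control diet. Stellate cell and fibroblast markers summed to 3434 to 4344 with clofibrate and 4157 to 5987 with control diet, and 0 of 14 passed. Of 6 bile duct markers 0 passed, and Cftr, Cldn7 and Krt7 were under the filter. Of the lymphocyte list 6 defining genes (Cd3e, Cd3g, Cd4, Cd79a, Ltb and Nkg7) were under the filter in these arrays. Its 7 tested markers gave 0 calls and summed to 274 to 436 with clofibrate and 165 to 312 with control diet. Of 8 neutrophil and monocyte markers 1 rose, the dim Elane, whose control arrays were all under 15.6 (limma adjusted p = 0.042). That list summed to 172 to 308 with clofibrate and 163 to 276 with control diet. Of 41 interferon and antigen presentation genes only B2m passed (1.23-fold lower), and its log2 difference turned to 0.000242 with quantile normalization and 0.0426 under scaling to the hybridization controls. Under scaling to the hybridization controls 1 stellate cell and 1 lymphocyte marker rose, and 0 Kupffer cell, endothelial and bile duct markers passed. The part of these marker sums in the results was not tested. Fcgr2b was not called under scaling to the hybridization controls. B2m was not called without control replicates 1, 2 or 3, permethrin replicates 1, 2 or 3 or clofibrate replicates 2 or 3 (adjusted p = 0.0522 to 0.147, log2 -0.31 to -0.26).

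Set directly against permethrin, clofibrate gave 33 higher (0.265%) and 59 lower genes (0.473%). The counts were 1 and 16 without clofibrate replicate 3, and 34 and 9 under scaling to the hybridization controls. Among the higher genes Lamb3, Cox6b2 and Slc27a1 stood furthest from permethrin. Slc27a1, a fatty acid transport protein, read 51.3, 38 and 46.6 in the control arrays, 152, 399 and 304 in the clofibrate arrays and 42.3, 47 and 64.2 in the permethrin arrays (adjusted p = 0.00768 against permethrin). Lgals4, a galactose-binding lectin of gut epithelium, read 21.1, 29.3 and 28.1 in the control arrays, 111, 103 and 121 in the clofibrate arrays and 26.6, 57.3 and 41.1 in the permethrin arrays (adjusted p = 0.0312 against permethrin). Trpm4, a cation channel, read 21.3, 25.9 and 26.1 in the control arrays, 67.5, 150.3 and 106 in the clofibrate arrays and 27.9, 33.4 and 35.4 in the permethrin arrays (adjusted p = 0.0208 against permethrin). The permethrin arrays of these genes overlapped the control arrays or lay little above them, and every clofibrate array was higher than both. Qpct, which cyclises N-terminal glutamine of secreted peptides, was at 45.2 ± 7.52 in control, 150.4 ± 25.7 in clofibrate and 62.4 ± 4.0 in permethrin arrays (mean ± SD, n = 3 each; adjusted p = 0.0116 against permethrin).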

How the data were processed

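Liver RNA of 9 mice was hybridized to Affymetrix expression arrays, 1 array per mouse, 3 per diet. The deposited values are signal intensities that the authors computed with MAS5 per the submitters' processing notes; its version is not given in the sources used here. Per the labels' protocols the target was biotin-labelled cRNA. Of the deposited table's 45101 probe sets, 64 controls were set aside, and 24546 probe sets with a signal over 15.6 (the median of all signals) on at least 3 arrays were tested. The offset of 3.35 is the 20th percentile of all signals. In limma 3.58.1 (R 4.3.3) group means were fitted to log2(signal + offset) over all 9 arrays, with empirical Bayes variances that follow the signal, and p-values were adjusted by Benjamini-Hochberg over all tested probe sets. Symbols came from the platform annotation, updated through RefSeq gene tables (GRCm38.p6), and 1563 of 1788 list symbols had a probe set, 1476 of them a tested one. A gene stands for the brightest of its tested probe sets (by mean log2 signal), and 932 probe sets with several symbols were not named. Folds are 2 to the power of the log2 difference.

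The members and gene lists were chosen with earlier results of these data known. Named genes were the 12 largest rises and 12 largest falls among called genes whose groups do not overlap, the 12 moderate changes (under 2-fold) with the smallest p in each direction, up to 5 called genes with the largest change in each list, and a list of single genes. The list of protein translocation and ER export, and genes of ER export, complement, coagulation, sterol and sphingolipid synthesis and of the difference from permethrin that lie outside this rule, were added after their values were seen. The script was tested on simulated data. Precision is limited by 3 arrays per group. The labels describe separate mice per diet. Replicate numbers did not pair the arrays: deviations of same-numbered control and clofibrate arrays correlated at 0.00814 to 0.0114.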

Additional observations from a re-analysis of the deposited data

How the results depend on the processing

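Of 280 named called genes, 113 kept their call and direction in all 23 alternatives and 167 lost the call in at least 1, 21 of them only under scaling to the hybridization controls. The 877 calls (403 higher, 474 lower) became 1016 higher and 88 lower under scaling to the hybridization controls, of which 491 were shared with the 877. With each array centred on its median 488 genes were called, 182 lower. Without an intensity trend in the variances 398 were called (219 higher, 179 lower), and with array quality weights 1496 (661 higher, 835 lower). A fold of at least 2 as well left 292. Leaving out 1 array gave 430 to 889 calls, 213 to 406 higher and 217 to 486 lower, the fewest without clofibrate replicate 3. With the replicate block 727 genes were called, 334 higher and 393 lower; the numbers are no pairing, and 2 of the 3 clofibrate arrays correlated best with the control array of their own number. With only the 6 control and clofibrate arrays 798 were called, and without the filter on dim signals 675 of 18193 genes. The direction reversed for Rps29 (0.0108 with quantile normalization, 0.00178 with scaling to the hybridization controls), B2m (0.000242 and 0.0426) and Mrpl17 (-0.0684 with the mean of all its probe sets). The cause was not tested. Clofibrate against permethrin gave 10 calls without an intensity trend, 226 with array quality weights, 32 with median centring, 62 with the replicate block and 17 to 119 when 1 array was left out, against 92.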
